A study of Homo sapiens with 18 samples.

Results

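HDM201 and RG7112 are inhibitors of MDM2, and the comparison described here sets the 6 arrays of HDM201 directly against the 6 arrays of RG7112, 12 of the 18 arrays of the series. All cells were OCI-AML3, a human acute myeloid leukaemia line, labelled wildtype in every group. They were exposed for 24 h to 2 µM RG7112, to 500 nM HDM201 or to DMSO, the solvent control, whose 6 arrays serve as background. Each compound was given at 1 dose and 1 time, and the doses differ, so compound and dose cannot be told apart: every difference below is between 500 nM HDM201 and 2 µM RG7112. Total RNA was measured as log2 signals of 21448 probes, 17709 of them with 1 gene symbol. The labels number the replicates as biological without saying how cultures were separated, so the tests speak only to the spread among these 12 arrays, whose number sets the precision, and only to 1 cell line.

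MDM2 is the ubiquitin ligase that marks p53 for destruction. A compound that inhibits MDM2 frees p53, which then switches on genes for cell cycle arrest, DNA repair, cell death and feedback, MDM2 itself among them. Among these targets CDKN1A blocks cyclin-dependent kinases and keeps RB on E2F sites, and through RB family proteins and the DREAM complex the genes for DNA replication and mitosis are shut down. Immunity against leukaemia after allogeneic transplantation is the theme that the series title gives, and its genes (surface ligands, antigen presentation, death receptors) follow the p53 targets below.

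The arrays carried the signals of a myeloid leukaemia line. LYZ had a mean of 12.92 with RG7112 and 12.95 with HDM201, and CD68, PTPRC and ITGB2 lay above 11 in both, whereas the T cell genes CD3D, CD3G and CD2 and the B cell gene MS4A1 lay at or below 4.00. Of the 12 measured lymphocyte markers 4 had a DMSO mean over 6, NKG7, CD79A, CD79B and PAX5, as had 4 of 10 erythroid and megakaryocyte and 3 of 10 fibroblast and epithelial markers. The mean over the lymphocyte list ran from 4.89 to 5.08 with RG7112 and from 4.93 to 5.05 with HDM201. On RG7112 replicate 3 the erythroid and megakaryocyte mean was 6.21 and the fibroblast and epithelial mean 5.70, above all other arrays of either compound (5.58 to 5.80 and 5.39 to 5.54), and their part in the results was not tested. Of the 12 measured members of the myeloid list 0 were called between the compounds, and MPO, a granule enzyme, was low in both (5.57 and 5.38). Array medians lay between 6.44 and 6.57, and the lowest signals, between 2.66 and 2.85, show where the scale ends. Replicates 1 to 3 and replicates 4 to 6 formed separate sets: over the 12 arrays 1412 probes (6.58%) were called between the sets, and the labels do not say what separates them. RG7112 replicate 3 stood apart: its interquartile range was 3.45, and those of the other arrays lay between 3.7 and 3.91. The set was therefore a block in the fit, and values without RG7112 replicate 3 are given beside the main ones for part of the genes and lists.

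No probe was called between HDM201 and RG7112. In the limma fit 0 of 21448 probes (0%) reached an adjusted p under 0.05, the smallest adjusted p was 0.981, and 765 probes (3.57%) had an unadjusted p under 0.05, 303 (1.41%) with the higher mean under HDM201 and 462 (2.15%) with the lower. Without RG7112 replicate 3 the count was again 0 (0%), with a smallest adjusted p of 0.515 and 999 probes (4.66%) under the unadjusted threshold. The arrays of the compounds did not overlap for 9 probes with HDM201 above (0.042%) and for 9 with HDM201 below (0.042%). A test of whether the difference between the compounds itself differed between the replicate sets called 0 probes (0%), with 571 (2.66%) at an unadjusted p under 0.05.

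For each probe taken alone, the data bound how far the compounds are likely to lie apart. The shares below count dim and unresponsive probes as well. The 95% interval of the difference stayed within 2-fold in either direction for 21407 probes (99.8%) and within 1.5-fold for 20505 (95.6%), and without RG7112 replicate 3 for 21444 (100% after rounding) and 21101 (98.4%). The largest differences between the means were -0.71 and 0.63 on the log2 scale, no probe reached 1, and 27 probes (0.126%) reached 0.5, or 9 (0.042%) without RG7112 replicate 3. For comparison, 95% of probes differed by less than 0.24 between the compounds, by less than 0.72 between RG7112 and DMSO and by less than 0.79 between HDM201 and DMSO. In the fit of all 18 arrays, RG7112 raised 2011 probes (9.38%) and lowered 2446 (11.4%), and HDM201 raised 2201 (10.3%) and lowered 2368 (11%). These comparisons use the same DMSO arrays, so the counts are not independent of each other. In what follows, "rose" and "fell" refer to calls against DMSO, and differences between the compounds are given as HDM201 minus RG7112 in log2 units with 95% intervals, n = 6 arrays per group. The largest member of each gene list below, CDC45 and EXO1 among them, was picked by these differences. Its size and interval are therefore those of an extreme. In bulk RNA, a smaller share of cells with a transcript and less transcript per cell cannot be told apart.

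**Figure D1:**
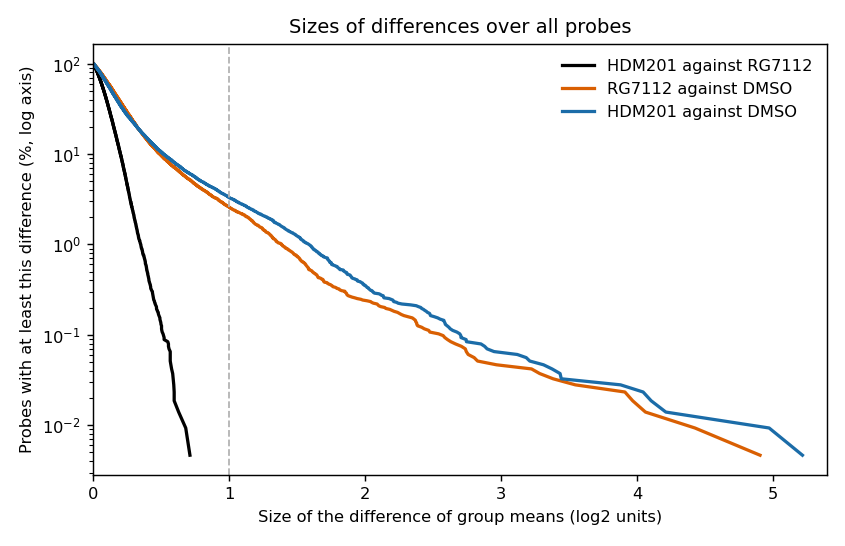
Percentage of the 21448 probes (y axis, log scale) whose group means differ by at least the size on the x axis in log2 units, for HDM201 against RG7112 and for each compound against DMSO; the dashed line marks 2-fold. The curve between the compounds ends at 0.71, below the 2-fold line, while the curves against DMSO run to 4.90 and 5.22.

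The p53 targets set the scale of the shared response. Of 47 measured members of the list, 41 rose and 0 fell with RG7112, and 41 rose and 0 fell with HDM201. Over all probes 9.38% rose and 11.4% fell with RG7112, and 10.3% rose and 11% fell with HDM201. Between the compounds 0 members were called and 5 had an unadjusted p under 0.05, all with the higher mean under HDM201 (background 1.41% of probes). The mean was higher under HDM201 for 37 of the 47 and lower for 10 (21.3%, against 49% of all probes, and 50.3% of them without RG7112 replicate 3), with a median difference of 0.12 (0.003 over all probes), of 0.10 without RG7112 replicate 3, of 0.11 in replicates 1 to 3 and of 0.11 in replicates 4 to 6. Members of a list share the same arrays, so such counts describe these arrays and are not independent measurements. The list was written from textbook targets with earlier results of these arrays known.

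MDM2 itself, the target of both compounds and a p53 target that closes the feedback loop, reached overlapping levels under each. It ran from 9.34 to 10.43 on the DMSO arrays (median 9.84), from 12.23 to 12.70 with RG7112 (median 12.45) and from 12.28 to 12.65 with HDM201 (median 12.46). Both treated groups lay above every DMSO array and overlapped each other almost wholly. The difference was 0.008 with an interval of -0.15 to 0.16, whose ends lie within 1.12-fold in either direction. MDM4, the relative of MDM2 that also restrains p53, did not pass against DMSO (0.31 with RG7112 and 0.27 with HDM201), and differed by -0.047 between the compounds (-0.27 to 0.18).

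CDKN1A, the p21 inhibitor of cyclin-dependent kinases, rose by 3.97 with RG7112 and by 4.10 with HDM201. Its signal went from 7.27 to 9.13 (median 8.31) on the DMSO arrays to between 11.59 and 12.74 (median 12.23) with RG7112 and between 11.81 and 12.82 (median 12.36) with HDM201. The treated groups overlapped over most of their range, and within each of them all replicates 4 to 6 lay below all replicates 1 to 3. The difference between the compounds was 0.14 (-0.050 to 0.32). TP53I3, an oxidoreductase, rose by 3.28 and 3.43, with 10.22 to 11.13 (median 10.67) under RG7112 and 10.24 to 11.42 (median 10.82) under HDM201, a difference of 0.15 (-0.015 to 0.32). CMBL, a hydrolase with one of the largest responses in the list, rose by 3.91 and 4.04.

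The p53 targets with an unadjusted p under 0.05 between the compounds were GDF15, GADD45A, TP53INP1, FUCA1 and KITLG, which were picked out here after their values were seen. GDF15, a secreted stress cytokine, ran from 6.61 to 7.46 on the DMSO arrays (median 7.17), from 9.04 to 10.89 with RG7112 (median 10.19) and from 9.42 to 11.52 with HDM201 (median 10.43). The treated groups overlapped over part of their range, and within replicates 1 to 3 every HDM201 array (10.97 to 11.52) lay above every RG7112 array (10.71 to 10.89). The difference was 0.35 (0.075 to 0.62), 0.44 in replicates 1 to 3 and 0.25 in replicates 4 to 6. KITLG, the ligand of the KIT receptor, was dim on the DMSO arrays (3.48 to 4.09, median 3.83) and reached 4.17 to 5.44 (median 4.77) with RG7112 and 4.30 to 5.77 (median 5.35) with HDM201. Its difference of 0.48 (0.15 to 0.80) was 0.54 without RG7112 replicate 3. FUCA1, a lysosomal fucosidase, differed by 0.31 (0.095 to 0.52), GADD45A, a growth arrest and repair protein, by 0.26 (0.084 to 0.43), and TP53INP1, a p53 cofactor, by 0.22 (0.018 to 0.42).

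The p53 target with the largest difference was PRDM1, a transcriptional repressor that acts in lymphoid and myeloid differentiation, and here 1 array decided the size. On the DMSO arrays it ran from 4.60 to 6.32 (median 5.69), with RG7112 from 5.44 to 7.59 (median 6.61) and with HDM201 from 6.37 to 7.65 (median 7.10). RG7112 replicate 3 gave the 5.44, and the difference of 0.57 (-0.016 to 1.15) became 0.27 without it. At the other end of the list, TRIAP1, RPS27L, PLK3 and ASCC3 had means lower under HDM201 by less than 0.1 although all 4 rose with both compounds.

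**Figure D2:**
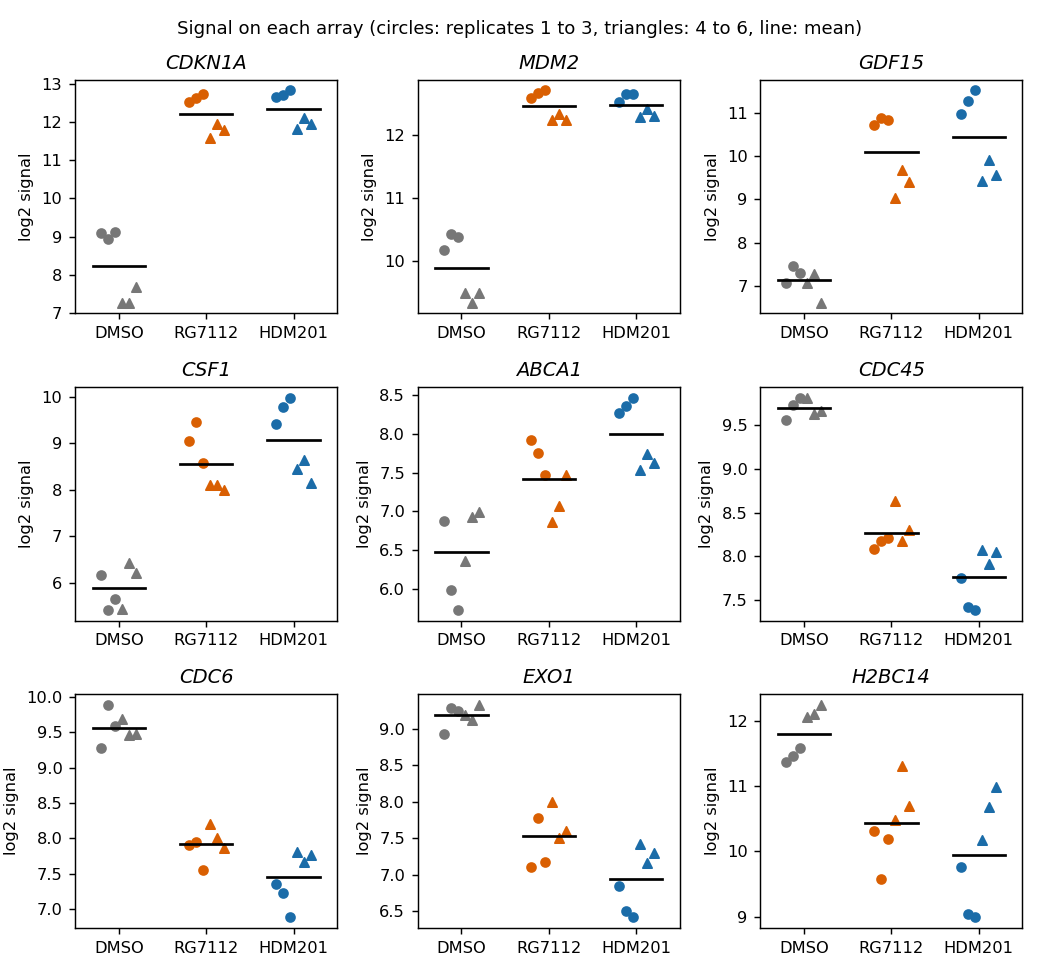
Log2 signal on each of the 18 arrays for 9 genes, by group, with circles for replicates 1 to 3, triangles for replicates 4 to 6 and a line at the group mean. MDM2 and CDKN1A overlap between the compounds, and CDC45 is the panel in which no HDM201 array (7.39 to 8.07) reaches the lowest RG7112 array (8.08).

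The death receptors, which receive killing signals from T and NK cells, rose with both compounds. FAS rose by 1.45 with RG7112 and 1.52 with HDM201, TNFRSF10A (TRAIL receptor 1) by 1.19 and 1.32, and TNFRSF10B (TRAIL receptor 2) by 1.63 and 1.76. FAS ran from 8.40 to 9.42 (median 8.94) with RG7112 and from 8.44 to 9.44 (median 8.98) with HDM201, against 7.12 to 7.99 (median 7.29) with DMSO. TNFRSF10A ran from 8.77 to 9.38 (median 9.06) and from 8.94 to 9.48 (median 9.17), against 7.62 to 8.08 (median 7.88). TNFRSF10B ran from 10.24 to 10.80 (median 10.49) and from 10.39 to 10.85 (median 10.64), against 8.56 to 9.23 (median 8.87). For all 3 receptors the treated arrays lay above every DMSO array and overlapped each other. The differences were 0.077 (-0.098 to 0.25), 0.13 (-0.031 to 0.29) and 0.12 (-0.033 to 0.28), so an interval reaches at most 1.22-fold. The decoy receptor TNFRSF10D rose with both as well and differed by 0.15 (-0.038 to 0.35).

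Of the 13 measured genes of the death receptor pathway, 6 rose with RG7112 (background 9.38%) and 8 with HDM201 (background 10.3%), and 0 were called between the compounds. The mean was higher under HDM201 for 12 of the 13 (1 lower, 7.69%, against 49% of all probes), with a median of 0.12 that was 0.056 without RG7112 replicate 3. FAS, TNFRSF10A and TNFRSF10B are also members of the p53 list, so the 2 counts overlap. TRADD, an adaptor of the TNF receptor, had the largest difference, 0.26 (0.038 to 0.47), and 0.18 without that array. It ran from 6.26 to 6.81 (median 6.68) with RG7112 and from 6.75 to 7.01 (median 6.89) with HDM201. In the BCL2 family, which decides on mitochondrial outer membrane opening, 6 of 16 members rose and 1 fell with each compound, 0 were called between them, and the median difference was 0.012. The background was 9.38% risen and 11.4% fallen with RG7112, and 10.3% and 11% with HDM201. BAX, the pore-forming executioner, ran from 10.99 to 11.41 (median 11.08) with RG7112 and from 11.04 to 11.17 (median 11.06) with HDM201, against 9.84 to 10.53 (median 10.13) with DMSO, a difference of -0.040 (-0.21 to 0.13). BCL2A1, a protective member, rose by 1.38 and 1.62, and its difference of 0.24 (-0.069 to 0.54) was the largest in the family. BCL2, also protective, fell by 0.41 with each.

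The genes of DNA replication, mitosis, recombination and histones had, for most members, lower means under HDM201 than under RG7112, in lists most of whose members fell with both compounds. No single gene of these lists passed the adjusted test between the compounds. Of 34 genes of G1/S and DNA replication, 0 were called between the compounds, 16 had an unadjusted p under 0.05, all lower under HDM201 (background 2.15%), and 32 had a mean below that of RG7112 (94.1%, against 49% of all probes). Their median difference was -0.22, -0.27 without RG7112 replicate 3, -0.28 in replicates 1 to 3 and -0.19 in replicates 4 to 6. Against DMSO 32 fell (background 11.4%) and 0 rose (background 9.38%) with RG7112, with a median difference of -1.27. With HDM201 32 fell (background 11%) and 0 rose (background 10.3%), with a median difference of -1.54.

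**Figure D3:**
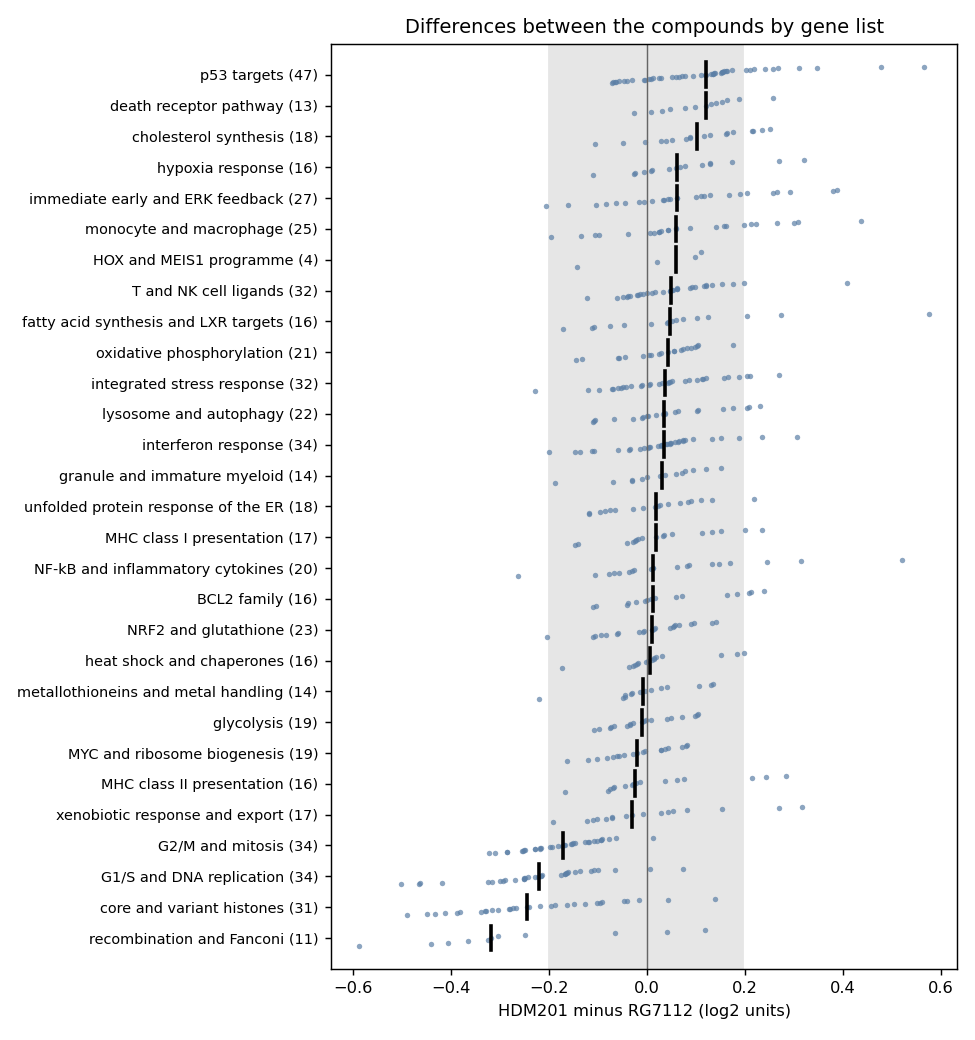
Differences HDM201 minus RG7112 in log2 units (x axis) for every measured member of the 29 gene lists (1 point per gene, number of genes in parentheses, black bars at the list medians, grey band from the 5% to the 95% quantile of all probes, -0.20 to 0.20). The medians of recombination, histones and G1/S lie below the band, and the median of p53 targets, 0.12, lies within it.

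CDC45, a core part of the replicative helicase, was the single gene of the 611 list genes whose arrays did not overlap between the compounds. Over all probes the shares without overlap were 0.042% with HDM201 below and 0.042% with HDM201 above. It ran from 9.56 to 9.82 with DMSO (median 9.70), from 8.08 to 8.63 with RG7112 (median 8.20) and from 7.39 to 8.07 with HDM201 (median 7.83). The difference was -0.50 (-0.72 to -0.28), -0.64 in replicates 1 to 3, -0.36 in replicates 4 to 6 and -0.47 without RG7112 replicate 3. CDC6, which loads the helicase at origins, ran from 9.28 to 9.89 (median 9.53), from 7.55 to 8.21 (median 7.92) and from 6.88 to 7.81 (median 7.51), a difference of -0.47 (-0.71 to -0.22). Its groups overlapped over all arrays but not within either set: in replicates 1 to 3 the highest HDM201 array was at 7.36 and the lowest RG7112 array at 7.55, and in replicates 4 to 6 these were at 7.81 and 7.86.

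Other replication genes lay in the same order. UHRF1, a reader of hemimethylated DNA, differed by -0.46 (-0.78 to -0.14), POLE2, a subunit of DNA polymerase epsilon, by -0.42 (-0.65 to -0.19), and the helicase subunits MCM6 and MCM2 by -0.32 and -0.29. TK1, the thymidine salvage kinase, ran from 9.18 to 9.90 (median 9.41) with RG7112 and from 8.80 to 9.48 (median 9.23) with HDM201, a difference of -0.25 (-0.42 to -0.080). E2F1, the transcription factor that drives this programme, was low under both, with 5.27 to 6.26 (median 5.71) and 5.20 to 6.27 (median 5.66) against 7.34 to 8.06 (median 7.62) with DMSO. Its treated groups overlapped wholly and differed by -0.15 (-0.49 to 0.20), by -0.33 in replicates 1 to 3 and by 0.038 in replicates 4 to 6. PCNA, the sliding clamp, which p53 also activates, did not pass against DMSO with either compound and differed by 0.006 (-0.16 to 0.17).

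Promoter sequences describe the lists apart from their signals. Windows of 300 bases, from 250 before to 50 after the annotated start, were taken from RefSeq (GRCh38.p14) for 29 of the 34 G1/S genes and 28 of the 34 mitotic genes. An E2F word (TTTCCCGC or TTTGGCGC, either strand) stood in 17 of the 29 G1/S promoters (58.6%), in 2 of the 28 mitotic ones (7.14%) and in 631 of all 27305 promoters (2.31%). A CHR word (TTTGAA, either strand), the element through which DREAM binds mitotic promoters, stood in 1 of the G1/S promoters (3.45%), in 17 of the mitotic ones (60.7%) and in 4212 of all (15.4%). CCAAT, on either strand, stood in 16 (55.2%), 22 (78.6%) and 9747 (35.7%), and in 3 of all promoters an E2F word overlapped one of the other words. Among 10 recombination promoters an E2F word stood in 1 and a CHR word in 1. Among 30 histone promoters these stood in 0 and in 13 (43.3%). CCAAT was also frequent in lists whose medians were higher under HDM201, at 88.9% for the unfolded protein response and 82.4% for cholesterol synthesis. Within the G1/S list the median difference between the compounds was -0.24 for the 17 genes with an E2F word and -0.19 for the 12 without. A word is a description of these letters and not a binding site, and near matches were not counted. The promoters below were chosen after the values were seen, as genes with large differences between the compounds. They are CDC6 (chr17:40287629-40287928, plus strand), POLE2 (chr14:49688165-49688464, minus strand) and UHRF1 (chr19:4909251-4909550, plus strand), with the E2F word, or its reverse complement, in capitals. CDC45 (chr22:19479670-19479969, plus strand) has no exact E2F word in this window, but holds tttggcgg, which differs from TTTGGCGC in its last base. CCNB2 (chr15:59104896-59105195, plus strand), a mitotic cyclin, has CHR and CCAAT words in capitals. Each is written 5' to 3' on its gene's strand.
CDC6: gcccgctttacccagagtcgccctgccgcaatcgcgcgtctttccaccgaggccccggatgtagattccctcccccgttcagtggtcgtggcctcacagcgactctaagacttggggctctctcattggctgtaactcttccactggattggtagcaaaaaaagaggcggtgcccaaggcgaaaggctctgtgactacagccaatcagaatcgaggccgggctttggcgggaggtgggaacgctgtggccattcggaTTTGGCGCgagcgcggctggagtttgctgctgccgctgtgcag
POLE2: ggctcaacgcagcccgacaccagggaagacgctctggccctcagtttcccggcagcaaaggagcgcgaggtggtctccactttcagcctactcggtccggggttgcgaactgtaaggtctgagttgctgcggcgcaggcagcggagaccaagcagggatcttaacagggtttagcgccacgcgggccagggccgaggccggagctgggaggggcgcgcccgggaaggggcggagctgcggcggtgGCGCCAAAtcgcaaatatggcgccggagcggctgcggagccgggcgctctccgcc
UHRF1: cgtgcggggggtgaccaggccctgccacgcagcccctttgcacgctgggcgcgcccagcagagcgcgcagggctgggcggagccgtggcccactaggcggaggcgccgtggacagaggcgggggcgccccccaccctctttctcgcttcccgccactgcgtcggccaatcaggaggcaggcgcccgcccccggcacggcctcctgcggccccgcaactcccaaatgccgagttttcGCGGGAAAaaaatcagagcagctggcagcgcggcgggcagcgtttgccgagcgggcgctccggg
CDC45: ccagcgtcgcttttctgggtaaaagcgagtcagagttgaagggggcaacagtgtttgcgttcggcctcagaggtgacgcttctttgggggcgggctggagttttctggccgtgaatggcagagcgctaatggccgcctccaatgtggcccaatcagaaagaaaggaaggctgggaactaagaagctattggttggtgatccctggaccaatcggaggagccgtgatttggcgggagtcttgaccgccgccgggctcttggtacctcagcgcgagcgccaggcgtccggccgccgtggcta
CCNB2: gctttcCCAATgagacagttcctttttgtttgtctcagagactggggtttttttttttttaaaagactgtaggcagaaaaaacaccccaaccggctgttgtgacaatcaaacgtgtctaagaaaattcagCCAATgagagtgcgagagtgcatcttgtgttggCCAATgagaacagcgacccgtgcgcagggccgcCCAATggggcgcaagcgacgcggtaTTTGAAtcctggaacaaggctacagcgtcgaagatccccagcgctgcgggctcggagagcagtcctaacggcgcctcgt

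Of the 34 mitotic genes, all fell with both compounds (background 11.4% with RG7112 and 11% with HDM201). Between the compounds 33 had a mean lower under HDM201 (97.1%, against 49% of all probes). An unadjusted p under 0.05 was reached by 8, all lower (background 2.15%), and 0 were called. The median difference depended on single RG7112 arrays: it was -0.17 with all 12 arrays, -0.28 without RG7112 replicate 3 and -0.092 without RG7112 replicate 2. CENPA, the centromeric histone, had the largest difference, with 6.38 to 7.20 (median 6.98) under RG7112, 6.22 to 7.01 (median 6.63) under HDM201 and 7.73 to 8.01 (median 7.94) under DMSO. The treated groups overlapped, and the difference was -0.32 (-0.55 to -0.099). CCNB2 ran from 8.19 to 9.30 (median 8.82) with RG7112 and from 8.10 to 8.83 (median 8.48) with HDM201, a difference of -0.31 (-0.54 to -0.083). BIRC5, the survivin subunit of the chromosomal passenger complex, differed by -0.29 (-0.50 to -0.070). MKI67, the Ki-67 proliferation marker, ran from 9.07 to 10.66 (median 10.25) and from 9.45 to 10.34 (median 10.02), against 11.06 to 11.39 (median 11.31) with DMSO. RG7112 replicate 3 held the lowest of these values, and the difference of -0.12 (-0.45 to 0.22) was -0.28 without it. KIF20A, a mitotic kinesin, was the exception in sign, at 0.012 with all arrays and -0.26 without RG7112 replicate 3.

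The recombination and Fanconi genes, which repair broken and crosslinked DNA in S phase, had the lowest median of the 29 lists, -0.32. It was -0.36 in replicates 1 to 3 and -0.28 in replicates 4 to 6. With single arrays left out it ran from -0.36 (without RG7112 replicate 3) to -0.23 (without HDM201 replicate 3). The list holds 16 genes, of which 11 were measured. Of 11 measured members 10 fell with each compound (background 11.4% and 11%), 9 had a lower mean under HDM201 (81.8%, against 49% of all probes), 5 had an unadjusted p under 0.05, all lower (background 2.15%), and 0 were called. EXO1, the exonuclease that resects broken ends, ran from 8.92 to 9.33 (median 9.22) with DMSO, from 7.11 to 7.999 (median 7.55) with RG7112 and from 6.42 to 7.42 (median 7.004) with HDM201. The groups overlapped over all arrays, but in each set every HDM201 array lay below every RG7112 array. Its difference of -0.59 (-0.88 to -0.29) was the largest of any list gene and was -0.61 without RG7112 replicate 3. XRCC2, a recombination repair protein, differed by -0.44 (-0.69 to -0.19), and BRIP1, the helicase partner of BRCA1, by -0.41 (-0.62 to -0.19). BRCA1 and the checkpoint kinase CHEK1 differed by -0.25 (-0.51 to 0.013) and -0.32 (-0.66 to 0.023). PALB2, which bridges BRCA1 and BRCA2, did not pass against DMSO and differed by 0.12 (-0.20 to 0.43).

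Histone genes had a median difference of -0.24 over 31 members, of which 29 had a lower mean under HDM201 (93.5%, against 49% of all probes), 16 had an unadjusted p under 0.05, all lower (background 2.15%), and 0 were called. Against DMSO 23 fell with RG7112 (background 11.4%) and 26 with HDM201 (background 11%). The median was -0.38 in replicates 1 to 3, which include RG7112 replicate 3, and -0.10 in replicates 4 to 6. Without RG7112 replicate 3 the median over both sets was -0.21. The test of whether the difference itself differed between the sets called 0 probes. Core histone genes are near-identical copies, so their probes can share signal and each single value is uncertain. H2BC14, an H2B gene, ran from 11.37 to 12.25 (median 11.83) with DMSO, from 9.58 to 11.32 (median 10.40) with RG7112 and from 8.99 to 10.99 (median 9.97) with HDM201. Its wide, overlapping groups gave a difference of -0.49 (-0.92 to -0.055), with -0.77 in replicates 1 to 3 and -0.21 in replicates 4 to 6. Without RG7112 replicate 3 the difference was -0.42 (-0.87 to 0.026). H2AC8 and H4C4 differed by -0.45 (-0.75 to -0.14) and -0.41 (-0.71 to -0.12), while H3-3B, a replication-independent variant, differed by -0.017.

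**Figure D4:**
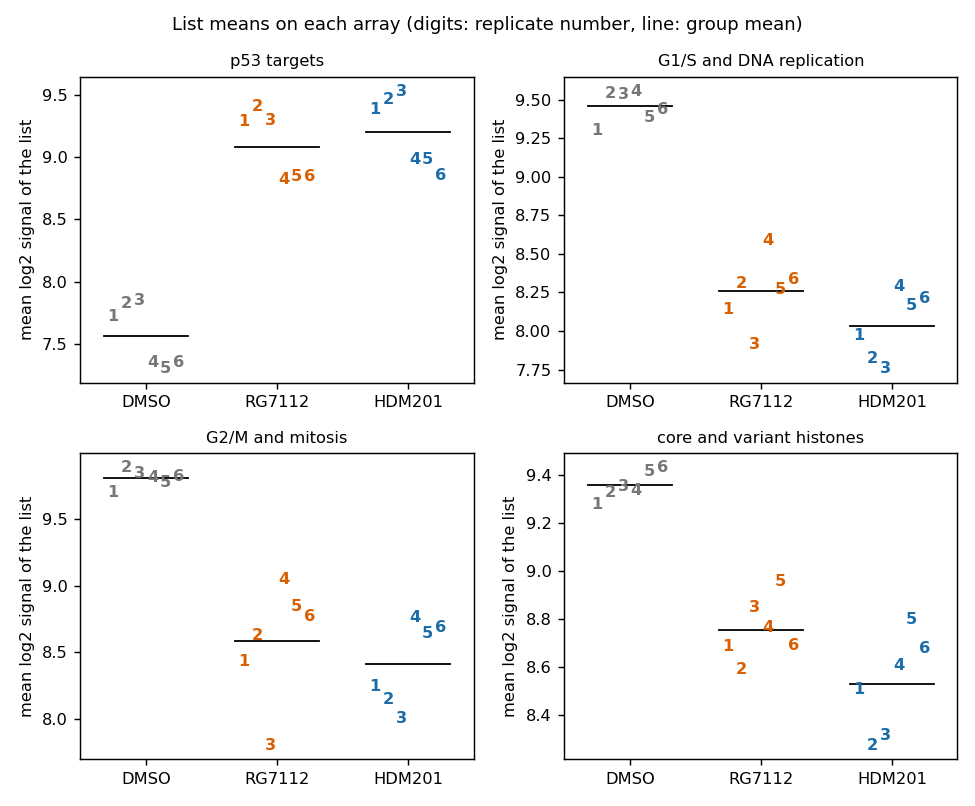
Mean log2 signal of all measured members of 4 lists (y axis) on each of the 18 arrays; digits give the replicate number and lines the group means. In the G1/S panel the HDM201 arrays run from 7.76 to 8.29 and the RG7112 arrays from 7.91 to 8.59, and in the G2/M panel RG7112 replicate 3, at 7.80, lies below every HDM201 array.

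List means on single arrays show how these shifts compare with the sets. For G1/S with RG7112, the lower-numbered set averaged 8.12 ± 0.20 and the higher-numbered set 8.40 ± 0.17 (SD over 3 arrays each). With HDM201 the same sets averaged 7.85 ± 0.11 and 8.22 ± 0.061. The distance between sets within a compound was at least as large as the distance between the compounds within a set. For p53 targets the sets averaged 9.33 ± 0.064 and 8.83 ± 0.014 with RG7112, and 9.46 ± 0.073 and 8.94 ± 0.075 with HDM201. The sets lay further apart than the compounds, on the DMSO arrays as well, at 7.80 ± 0.067 and 7.34 ± 0.029.

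The ligands through which leukaemia cells meet T and NK cells gave 0 calls between the compounds. Of 32 measured, 9 rose and 2 fell with each, and the median difference was 0.048 (-0.005 without RG7112 replicate 3). The background was 9.38% risen and 11.4% fallen with RG7112, and 10.3% and 11% with HDM201. TNFSF4, the OX40 ligand that costimulates T cells, ran from 4.99 to 5.95 (median 5.37) with DMSO, from 6.73 to 9.17 (median 7.86) with RG7112 and from 7.08 to 8.94 (median 7.98) with HDM201. Both groups lay above every DMSO array, and the RG7112 range enclosed the HDM201 range, with a difference of 0.18 (-0.14 to 0.49). TNFSF9, the 4-1BB ligand, rose by 1.14 and 1.13, and the stress ligand ULBP2, seen by NKG2D, by 0.59 and 0.64. LGALS9, the galectin that binds TIM-3, had the largest difference of the list: it ran from 9.57 to 10.62 (median 10.02) with RG7112 and from 10.12 to 11.001 (median 10.44) with HDM201, against 8.62 to 9.11 (median 8.78). That difference of 0.41 (0.077 to 0.74) was 0.24 without RG7112 replicate 3. CD274 (PD-L1) lay near the low end of the scale in all groups, between 3.05 and 3.48, and differed by 0.061 (-0.14 to 0.26).

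Antigen presentation genes gave 0 calls between the compounds. Of 17 genes of the class I pathway 3 rose and 1 fell with RG7112 (background 9.38% and 11.4%). With HDM201 4 rose and 1 fell (background 10.3% and 11%). Between the compounds 1 had an unadjusted p under 0.05, higher under HDM201 (background 1.41%), and the median was 0.018 (-0.017 without RG7112 replicate 3). TAP1, the peptide transporter and a known p53 target, rose by 1.31 with RG7112 and 1.51 with HDM201, with 7.87 to 8.49 (median 8.17) and 7.93 to 8.87 (median 8.29), and was that 1 gene, at 0.20 (0.007 to 0.39). B2M and HLA-C differed by -0.019 (-0.18 to 0.15) and -0.022 (-0.18 to 0.13). In class II 0 of 16 genes were called, and the median of -0.025 became 0.024 without RG7112 replicate 3. HLA-DRA lay between 3.54 and 4.10 in all groups, near the low end of the scale, and differed by 0.036 (-0.16 to 0.23). Such dim signals carry little information on a difference. CIITA, the class II transactivator, ran from 4.60 to 5.61 (median 4.85) with RG7112 and from 5.00 to 5.42 (median 5.24) with HDM201, against 4.92 to 5.80 (median 5.55) with DMSO. It fell by 0.48 with RG7112, did not pass with HDM201 (-0.19), and the direct difference was 0.28 (-0.023 to 0.59). Without RG7112 replicate 3 the direct difference was 0.32 (0.002 to 0.64).

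Interferon response genes fell in part with both compounds. Of 34 members 12 fell with RG7112 (background 11.4%) and 10 with HDM201 (background 11%), and 0 rose with either (background 9.38% and 10.3%). Between the compounds 0 were called, with a median difference of 0.035 (-0.014 without RG7112 replicate 3). MX1, an antiviral GTPase, fell by 1.16 and 1.11, and OAS1, which makes the messenger of RNase L, by 1.27 and 1.30. IRF7, the regulator that amplifies interferon production, did not pass against DMSO with either compound. It ran from 5.10 to 5.67 (median 5.54) with RG7112 and from 5.37 to 6.29 (median 5.72) with HDM201, a difference of 0.31 (0.064 to 0.55), and of 0.31 without RG7112 replicate 3.

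Among inflammatory genes, 0 of 20 were called between the compounds and the median was 0.013. CSF1, the growth factor of monocytes and macrophages, ran from 5.41 to 6.43 (median 5.90) with DMSO, from 7.99 to 9.45 (median 8.35) with RG7112 and from 8.15 to 9.98 (median 9.02) with HDM201. It rose by 2.66 and 3.18, and the direct difference was 0.52 (0.21 to 0.84), 0.70 in replicates 1 to 3, 0.35 in replicates 4 to 6 and 0.40 without RG7112 replicate 3. In replicates 4 to 6 every HDM201 array (8.15 to 8.64) lay above every RG7112 array (7.99 to 8.11), and in replicates 1 to 3 the groups overlapped at the edge, with 9.40 to 9.98 against 8.58 to 9.45. RELB, an NF-kB subunit, was the member with a lower mean at an unadjusted p under 0.05, at -0.26 (-0.51 to -0.021).

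Genes of monocyte and macrophage identity included 6 of 25 that rose with RG7112 (background 9.38%) and 8 with HDM201 (background 10.3%). Between the compounds 0 were called (median 0.060, and 0.039 without RG7112 replicate 3). ITGAM (CD11b) ran from 5.48 to 6.35 (median 5.88) with DMSO, from 7.37 to 8.81 (median 7.77) with RG7112 and from 7.04 to 9.08 (median 8.09) with HDM201. The HDM201 range enclosed the RG7112 range, and the difference was 0.088 (-0.22 to 0.40). CD36, a scavenger receptor, rose by 1.58 and 1.64. S100A8, a calcium-binding alarmin, rose by 1.56 and 2.00, but its difference of 0.44 (-0.20 to 1.07) was 0.13 without RG7112 replicate 3. Granule genes (14 members) had a median of 0.031 that was -0.012 without RG7112 replicate 3, and of the HOX and MEIS1 programme 4 members were measured, with a median of 0.059 that was -0.055 without that array. In both lists 0 members were called between the compounds.

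The probe with the smallest unadjusted p of all, 0.000109, belongs to ABCA1, the exporter that hands cholesterol to apolipoproteins and a classical target of the oxysterol receptor LXR. It ran from 5.73 to 6.997 (median 6.62) with DMSO, from 6.87 to 7.92 (median 7.47) with RG7112 and from 7.54 to 8.47 (median 8.002) with HDM201. The groups overlapped over all arrays but not within the sets: replicates 1 to 3 held 7.47 to 7.92 against 8.27 to 8.47, and replicates 4 to 6 held 6.87 to 7.47 against 7.54 to 7.74. The difference was 0.57 (0.34 to 0.81), an estimate of 1.49-fold, with an adjusted p of 0.981 in limma and a value of 0.51 without RG7112 replicate 3. ABCA1 is named as the largest member of its list and, with the probes below, after its values were seen. LPCAT3, another LXR target, differed by 0.27 (0.009 to 0.54) and ABCG1 by 0.059. Of the 16 genes of fatty acid synthesis and LXR targets 0 were called, with a median of 0.047.

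Cholesterol synthesis genes, which SREBF2 drives when sterols run low, had higher means under HDM201 for most members, while no direct difference passed. Of 18 members 11 fell with RG7112 (background 11.4%), and 5 fell (background 11%) and 1 rose (background 10.3%) with HDM201. Their median against DMSO was -0.36 with RG7112 and -0.22 with HDM201. Between the compounds 0 were called, 1 had an unadjusted p under 0.05, and 15 of the 18 had the higher mean under HDM201 (3 lower, 16.7%, against 49% of all probes), with a median of 0.10 (0.097 without RG7112 replicate 3). A call with one compound and not with the other is not a difference between them. MSMO1, a sterol demethylase, ran from 10.40 to 11.06 (median 10.73) with DMSO, from 9.95 to 10.61 (median 10.39) with RG7112 and from 10.33 to 10.88 (median 10.64) with HDM201, a difference of 0.25 (-0.001 to 0.50). SREBF2 itself differed by 0.22 (0.020 to 0.41). SQLE, the squalene epoxidase, fell with both, by 0.67 and 0.64, and differed by 0.029 (-0.26 to 0.31).

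**Figure D5:**
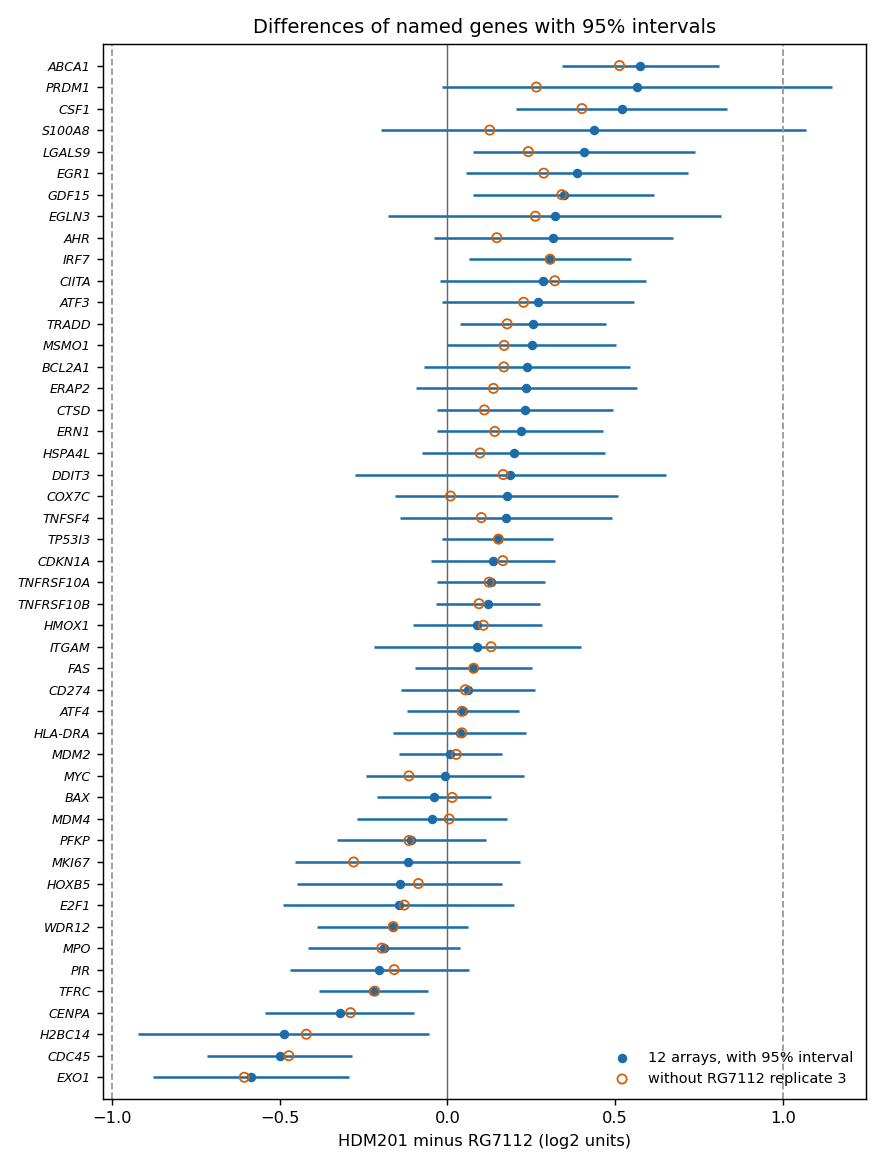
Differences HDM201 minus RG7112 in log2 units with 95% intervals for the 48 named genes (filled points, 12 arrays) and the same differences without RG7112 replicate 3 (open points); dashed lines mark 2-fold. Apart from the intervals of PRDM1 and S100A8, which end at 1.15 and 1.07, every interval shown lies within 2-fold.

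Stress and metabolic lists held 0 members called between the compounds, and their medians lay between -0.030 for xenobiotic response and export and 0.062 for hypoxia response and for immediate early genes. Without RG7112 replicate 3 the hypoxia median was -0.004 and the immediate early median 0.012. ATF4, the regulator of the integrated stress response, ran from 9.49 to 9.79 (median 9.65) with RG7112 and from 9.57 to 9.80 (median 9.70) with HDM201, a difference of 0.046 (-0.12 to 0.21). It fell by 0.45 and 0.40 against DMSO. DDIT3 (CHOP), which ATF4 induces, differed by 0.19 with a wide interval (-0.28 to 0.65), with HDM201 replicate 5 at 5.52 and the other HDM201 arrays at 6.85 to 7.31. HMOX1, the haem oxygenase induced by NRF2, differed by 0.089 (-0.10 to 0.28). The medians were 0.019 for the unfolded protein response (18 genes), 0.006 for heat shock (16; -0.033 without RG7112 replicate 3), 0.011 for NRF2 and glutathione (23; -0.001 without that array), -0.009 for metallothioneins and metal handling (14), -0.010 for glycolysis (19) and 0.042 for oxidative phosphorylation (21), which was -0.005 without RG7112 replicate 3. MYC differed by -0.008 (-0.24 to 0.23), and the 19 measured genes of MYC and ribosome biogenesis had a median of -0.020.

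TFRC, the transferrin receptor that brings iron into dividing cells, was the largest member of the metal handling list. It ran from 9.55 to 10.25 (median 9.71) with DMSO, from 8.54 to 9.25 (median 8.79) with RG7112 and from 8.24 to 8.98 (median 8.64) with HDM201. It fell by 0.96 and 1.18, and the direct difference was -0.22 (-0.38 to -0.057), and -0.22 without RG7112 replicate 3. EGR1, an immediate early transcription factor, rose by 1.27 and 1.65 and differed by 0.39 (0.056 to 0.72). Without RG7112 replicate 3 the EGR1 difference was 0.29 (-0.013 to 0.59). IER3, a p53- and NF-kB-responsive survival gene, rose by 1.64 and 2.02 and differed by 0.38 (0.023 to 0.74). AHR, the aryl hydrocarbon receptor, did not pass with RG7112 (0.41), rose by 0.73 with HDM201, and differed directly by 0.32 (-0.041 to 0.67), or 0.15 without RG7112 replicate 3. CTSD, a lysosomal protease, rose by 0.56 and 0.79 and differed by 0.23 (-0.031 to 0.49), or 0.11 without RG7112 replicate 3.

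Outside the lists, the genes below were taken from those with the smallest unadjusted p after their values were seen, so their sizes are those of the extremes of 21448 probes. Higher under HDM201 were GGACT, a gamma-glutamylamine cyclotransferase (0.46, from 0.25 to 0.66), ATOSA (0.49, from 0.23 to 0.74), PGF, placental growth factor (0.37, from 0.16 to 0.58), and KSR1, a scaffold of the RAF pathway (0.31, from 0.12 to 0.50). All 4 rose with both compounds, but other genes with an unadjusted p below that of KSR1 did not: SHROOM1 (0.38) and KCNK9 (0.27) fell with RG7112 and did not pass with HDM201, and GPC4 (0.39), GPAT3 (0.26) and ACADL (0.27) rose with HDM201 and did not pass with RG7112. GGACT ran from 6.08 to 6.51 (median 6.32) with RG7112 and from 6.5 to 6.90 (median 6.81) with HDM201, so the groups overlapped only at their edges. Lower under HDM201 were RNF152, a ubiquitin ligase (-0.51, from -0.76 to -0.26), NCAPG2, a condensin subunit (-0.50, from -0.76 to -0.25), and SH2D3C, a signalling adaptor (-0.38, from -0.57 to -0.19). RNF152 rose by 0.46 with RG7112 and did not pass with HDM201 (-0.057), with 5.45 to 6.00 (median 5.82) on the RG7112 arrays and 4.90 to 5.45 (median 5.29) on the HDM201 arrays, which overlapped at the edge. NCAPG2 fell with both, by 1.18 and 1.68.

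The genes whose arrays did not overlap between the compounds were few, from 9 probes with HDM201 above (0.042%) and 9 with HDM201 below (0.042%). They were picked by these same values, and whether their number exceeds chance was not tested. With HDM201 above they were GPAT3, KCNK9, ZC3H3, ANO3, PPP1R12A, MON1B and NDUFV3 besides probes without a symbol. With HDM201 below they were FAAH, APELA, SLC18A3, TMEM225, B3GNT4, RAPGEFL1, ITGB4 and VSIG10L besides CDC45. Apart from CDC45 at -0.50, the differences of these named genes ran from -0.33 for SLC18A3 to 0.27 for MON1B. The interval of NDUFV3 held 0 (-0.038 to 0.28). Several were dim, such as ANO3 with means of 3.40 with RG7112 and 3.59 with HDM201, and TMEM225 with 3.81 and 3.61. GPAT3, an acyltransferase of triglyceride synthesis, ran from 4.03 to 4.30 with RG7112 and from 4.34 to 4.53 with HDM201, in the low range of the scale, with a difference of 0.26 (0.10 to 0.43).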

How the data were processed

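The authors deposited log2 signals made with oligo and RMA (background correction, quantile normalization, probe set summary), per the submitters' processing notes. Versions and the build: not given in the sources used here. All 18 columns were mapped to samples by title. Of 21448 probes 17709 had 1 gene symbol in the platform table, 0 several and 3739 none. Probes with no symbol stayed in the tests. For 20 symbols with several probes the brightest one was used. Some genes are not reported here.

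HDM201 was compared with RG7112 on the 12 arrays with limma 3.58.1 (R 4.3.3), with compound and replicate set (1 to 3, 4 to 6) as terms. Each compound was compared with DMSO in the same model over 18 arrays. P-values were adjusted by Benjamini-Hochberg over all 21448 probes, with a threshold of 0.05, and intervals are 95% intervals of the model. The code was tested on simulated data. Same-numbered arrays of the compounds deviated together from their group means (r from 0.117 to 0.44 over probes for the 6 numbers, and from -0.046 to 0.332 after removing the set as well), so the numbers were treated as pairs in an alternative fit.

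The rule for named genes took called genes (there were 0), a fixed group of which 19 were measured, and the largest member of each of 29 lists. The largest members were picked by these same differences, so their sizes and intervals are those of extremes. All other genes named in the text were chosen after their values were seen. The lists hold 684 distinct genes, 611 of them measured. The comparison, its lists and the fixed genes were chosen with earlier results of these data known. The alternatives were no block, the number as a block, all 18 arrays in 1 fit, each set alone, array weights, a trended robust prior, filters on dim probes or on probes with no symbol, other scalings, and leaving out each array.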

Additional observations from a re-analysis of the deposited data

Results flagged for a closer look

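Single arrays stood apart from the other 5 of their group for 8 of 154 groups of values examined, over the named genes and the list means of both compounds. The measure was the gap of the extreme array to its neighbour as a share of the group's range, set against Dixon's 95% critical value for 6 arrays. That value flags by chance about 1 in 20 groups of 6 independent values from 1 normal distribution. The groups here hold both replicate sets and share arrays, so this rate need not apply. The causes were not tested.

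RG7112 replicate 3 gave 3 of the 8. BAX, the pore-forming BCL2 family member, was at 11.41 there and at 10.99 to 11.10 on the other RG7112 arrays (0.726 of the range). COX7C, a subunit of cytochrome c oxidase, was at 8.81 against 9.77 to 10.01 (0.795). The mean of the integrated stress response list was at 8.22 against 8.34 to 8.42 (0.636). ERAP2, a peptidase that trims class I peptides, was at 8.98 on RG7112 replicate 2 against 8.08 to 8.39 (0.653). The mean of the xenobiotic response list was at 5.48 on RG7112 replicate 1 against 5.32 to 5.38 (0.648).

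Among the HDM201 arrays, replicate 5 had DDIT3 at 5.52 against 6.85 to 7.31 (0.739) and EGLN3, a prolyl hydroxylase of the hypoxia response, at 6.25 against 4.65 to 5.24 (0.632). The mean of the list for the unfolded protein response of the ER was at 9.73 on HDM201 replicate 4 against 9.52 to 9.58 (0.703).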

How the results depend on the processing

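All 24 alternatives called 0 probes between the compounds, with a smallest adjusted p of 0.235 in limma (without RG7112 replicate 6). Counts at an unadjusted p under 0.05 ran from 533 to 1540 when arrays were left out 1 at a time, the latter without RG7112 replicate 2. The replicate block, which pairs arrays by number, gave 0 calls (882 unadjusted), and no replicate block gave 0 (493 unadjusted), so neither changed a call. The median of all probes moved to at most 0.025 under any scaling or filter.

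Differences of 10 named genes changed sign. Not all of them were near 0 in the main fit: DDIT3 was at 0.19, WDR12 at -0.16, E2F1 at -0.15 and MKI67 at -0.12. In replicates 1 to 3 alone, MDM2 was at -0.044, MKI67 at 0.006, MYC at 0.023 and HLA-DRA at -0.062. In replicates 4 to 6 alone, BAX was at 0.001, E2F1 at 0.038, DDIT3 at -0.031, ITGAM at -0.071 and WDR12 at 0.064. Further quantile normalization put MDM2 at -0.006, array weights put BAX at 0.007, and subtracting array medians put MYC at 0.008. Leaving out arrays gave ranges of -0.016 to 0.033 for MDM2, -0.065 to 0.014 for BAX, -0.095 to 0.007 for MDM4, -0.115 to 0.056 for MYC, -0.029 to 0.068 for HLA-DRA and -0.033 to 0.172 for ITGAM.

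With single arrays left out, 16 of the 29 list medians took both signs, those of hypoxia (-0.026 to 0.149), HOX genes (-0.055 to 0.104) and the interferon response (-0.014 to 0.077) among them, and the mitosis median ran from -0.281 to -0.092. List medians that moved by more than the SD between arrays were those of MHC class II (0.028 in replicates 4 to 6, 0.027 with array weights, 0.069 under the stricter filter on dim probes, and -0.040 to 0.024 with arrays left out), the BCL2 family (0.065 in replicates 1 to 3), the unfolded protein response (-0.077 in replicates 1 to 3), xenobiotic response (0.071 in replicates 1 to 3, 0.048 and 0.081 under the milder and the stricter filter) and histones (-0.375 in replicates 1 to 3, -0.102 in replicates 4 to 6). The cause was not tested. Signals near the low end of the scale, such as CD274 and HLA-DRA, limit what a difference there can show.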
